A study of Mus musculus with 2 samples.

Results

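Snhg1, Snhg3, Snhg4, Snhg5, Snhg12 and Gas5, which host small nucleolar RNAs (snoRNAs) in their introns, and Malat1 and Neat1, long noncoding RNAs that stay in the nucleus, are described here in mouse extraembryonic endoderm stem (XEN) cells. They were taken from a list of 10 gene symbols by exact match in a table of 26127 genes, which gave 8 members, and Snhg6 and Snhg8 were not analysed here. XEN cell lines stand for the primitive endoderm of the blastocyst. The line was PS10, female and of ICR strain, and total RNA was sequenced after a locked nucleic acid (LNA) was delivered with a lipid reagent. Both groups came from this one line: one received a control LNA, the other an LNA against Gata6-AS, a noncoding RNA transcribed next to the endoderm factor gene Gata6. Each group had 1 library, so every difference compares those 2 libraries, has no replicate check and carries no test.

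Most snoRNAs of vertebrates are cut out of introns during splicing of a host RNA. Box C/D snoRNAs guide methylation of ribosomal and spliceosomal RNA, and box H/ACA snoRNAs guide the change of uridine to pseudouridine or take part in cutting ribosomal RNA. The spliced remainder of a noncoding host such as Gas5 often starts with a run of pyrimidines (a terminal oligopyrimidine or TOP tract), is engaged by ribosomes and is broken down by nonsense-mediated decay, so its level depends on transcription and on decay. Malat1 is concentrated at nuclear speckles, the stores of splicing factors, and Neat1 is the scaffold of paraspeckles, nuclear bodies that hold RNA-binding proteins.

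The hosts differ in the snoRNAs they carry. In the GENCODE annotation of GRCm38 used here, the span of Gas5 held 10 entries of snoRNA genes, that of Snhg1 8, that of Snhg12 5, and those of Snhg5 and Snhg3 2 each, some of them repeated entries of a single snoRNA. Malat1 and Neat1 held 0, and Snhg4 was not matched. By name or by their boxes, 9 entries in Gas5, 6 in Snhg1 and 2 in Snhg5 were box C/D snoRNAs, those of Snhg3 were box H/ACA, and Snhg12 held 1 box C/D and 4 box H/ACA entries. One sequence or pair for each of these hosts is shown to make that difference visible, from the GENCODE transcripts, with capitals marking box C (TGATGA) and box D (CTGA) in the C/D snoRNAs and the ACA box near the end of the H/ACA snoRNAs.
Snord50a, in Snhg5: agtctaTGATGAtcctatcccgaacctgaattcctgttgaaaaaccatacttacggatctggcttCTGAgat
Snord50b, in Snhg5: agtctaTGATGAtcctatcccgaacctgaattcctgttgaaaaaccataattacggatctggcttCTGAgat
Gm25855, in Snhg1: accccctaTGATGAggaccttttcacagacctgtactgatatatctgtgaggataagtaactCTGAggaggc
Snord47, in Gas5: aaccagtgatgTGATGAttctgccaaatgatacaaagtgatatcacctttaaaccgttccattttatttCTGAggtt
Snord99, in Snhg12: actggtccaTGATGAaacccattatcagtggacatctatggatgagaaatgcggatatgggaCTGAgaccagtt
Snora61, in Snhg12: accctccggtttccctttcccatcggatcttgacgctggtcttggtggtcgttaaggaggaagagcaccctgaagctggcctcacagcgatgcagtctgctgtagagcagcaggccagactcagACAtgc
Snora73a, in Snhg3: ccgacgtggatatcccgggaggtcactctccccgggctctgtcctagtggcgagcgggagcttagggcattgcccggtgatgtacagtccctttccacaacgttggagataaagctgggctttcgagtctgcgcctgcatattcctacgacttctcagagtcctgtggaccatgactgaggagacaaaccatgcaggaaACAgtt
Snord50a and Snord50b were identical at 71 of 72 positions, and Snora73a and Snora73b of Snhg3 at 198 of 205. The snoRNAs themselves were not analysed as genes of their own, and all values below are those of the host rows, which may take in reads of the snoRNAs where a row includes introns.

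The start of each gene was compared in the RefSeq promoter windows of GRCm38.p6, which hold 250 bases before and 50 bases from the annotated start. Of the 8 measured genes 6 had such a window. A tract of a C followed by at least 4 pyrimidines, beginning within 5 bases of the start on the gene's strand, was present for 3 of these 6, Gas5, Snhg12 and Snhg3, and in 18.3% of 32817 windows of all genes. It was in 1 of the 2 windows of Gas5. Pyrimidine runs that fail any part of this rule were not counted. The windows of Snhg1 and Snhg5 below hold such runs near the start. The windows of 5 hosts are shown from 60 bases before the start to 50 bases from it, with capitals for this tract and for TATAAA on either strand (TTTATA where it lies on the other strand).
Gas5, chr1:161035106-161035215, plus strand: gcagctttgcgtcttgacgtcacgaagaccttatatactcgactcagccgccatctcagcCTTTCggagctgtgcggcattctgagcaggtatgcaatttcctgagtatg
Snhg12, chr4:132308618-132308727, plus strand: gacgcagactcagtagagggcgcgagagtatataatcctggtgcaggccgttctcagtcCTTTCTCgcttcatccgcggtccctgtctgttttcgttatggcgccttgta
Snhg3, chr4:132353637-132353746, minus strand: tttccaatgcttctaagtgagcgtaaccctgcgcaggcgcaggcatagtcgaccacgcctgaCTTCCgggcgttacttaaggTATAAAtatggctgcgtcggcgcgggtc
Snhg5, chr9:88522848-88522957, minus strand: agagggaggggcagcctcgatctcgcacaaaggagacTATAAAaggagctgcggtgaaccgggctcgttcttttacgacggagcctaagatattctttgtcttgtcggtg
Snhg1, chr19:8723427-8723536, plus strand: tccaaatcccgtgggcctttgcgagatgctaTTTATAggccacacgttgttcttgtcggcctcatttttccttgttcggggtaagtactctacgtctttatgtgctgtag
TATAAA on either strand was found in the windows of Snhg5 (23 bases before the start), Snhg3 (22 bases after it) and Snhg1 (other strand), and in 13.6% of all windows. CCAAT was in those of Snhg3 and Snhg5 and in 37.4% of all windows. CACGTG (7.15% of all windows) and AGATAA (11.2%), also searched on both strands, were in none of the 6 genes' windows. A match of letters is a description of the window and not evidence of binding.

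Both libraries were deep. Low RPKM values (reads per kilobase of gene per 1000000 reads) came in whole steps that put the depth of the control library at 1.04e+08 reads and that of the Gata6-AS LNA library at 1.23e+08, so that a value of 0 over a kilobase allows up to 0.0290 and 0.0244 RPKM (3 reads). Gata6-AS, which stands in the table as 1010001N08Rik, was at 57.8% of control (50.5% to 66.1%, the exact Clopper-Pearson range at 95% confidence), and Gata6 at 68.0% (66.8% to 69.3%). All such intervals cover counting error only. All 11 XEN markers listed were above 6 RPKM in both libraries, from Cubn (7.35 and 6.35 RPKM) to Sparc (2104 and 1689 RPKM). Their levels were not equal in the libraries: 9 of the 11 were below 0 on the log2(RPKM + 1) scale used below and 2 above, with a median difference of -0.37, from Sox7 (145 and 59.4 RPKM, -1.28) to Dab2 (31.03 and 43.6 RPKM, 0.48). Of 8 housekeeping genes 7 were above 0 and 1 below, with a median of 0.17. The part of these differences in the results on the 8 RNAs was not tested. Of 7 pluripotency markers, Sox2, Esrrb and Tdgf1 were listed at 0 in both libraries and Nanog was at 4.61 and 5.07 RPKM. The 8 trophoblast markers summed to 1.10 RPKM in the control and 1.78 in the Gata6-AS LNA library, and the 8 fibroblast markers to 0.00541 and 0.0150 RPKM. The highest trophoblast marker was Cdx2, at 0.653 RPKM in the control and 1.19 in the Gata6-AS LNA library (182% of control, 150% to 222%). In the same order Eomes was at 0.321 and 0.407 RPKM, Elf5 at 0.00986 and 0.0388, and Tfap2c at 0.00262 and 0. Among trophoblast markers Hand1 and Prl3d1 were at 0 in both libraries, and among fibroblast markers Col3a1, Thy1, Dcn, Lum and Twist1. The 8 replication-dependent histone genes, of a class whose mRNAs mostly lack poly(A) tails, summed to 78.1 and 77.8 RPKM. Whether these reads came from RNA without such tails was not tested.

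The RNAs split in 2 directions between the libraries. Snhg1, Snhg5, Snhg12 and Neat1 were at least 1.5-fold lower in the Gata6-AS LNA library, at 51.9% to 62.9% of control, Gas5 was at 84.5%, and Snhg3, Snhg4 and Malat1 were at 113% to 127%. Differences are those of log2(RPKM + 1), Gata6-AS LNA minus control LNA, a scale that understates differences of low genes. Genes whose mean over both libraries reached 1 RPKM were counted as measured, 10850 in all, among them the 8 RNAs. By 1.5-fold or more, 4 of the 8 RNAs were lower on this scale, beside 1.94% of the measured genes. At least 1.5-fold higher were 0 of the 8 and 3.43% of all genes, and with the median difference of all genes set to 0 the split over all genes was 261 lower and 270 higher in place of 211 and 372. At least 2-fold lower were 0 of the 8 and 0.452% of all genes, and at least 2-fold higher 0 of the 8 and 0.332%. Below 0 were 5 of the 8 and 42% of all genes, above 0 the other 3 and 58%. The median of the 8 was -0.43 and that of all genes 0.05. The cells were sequenced in bulk, so that fewer cells with an RNA and less of it per cell cannot be told apart.

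**Figure D1:**
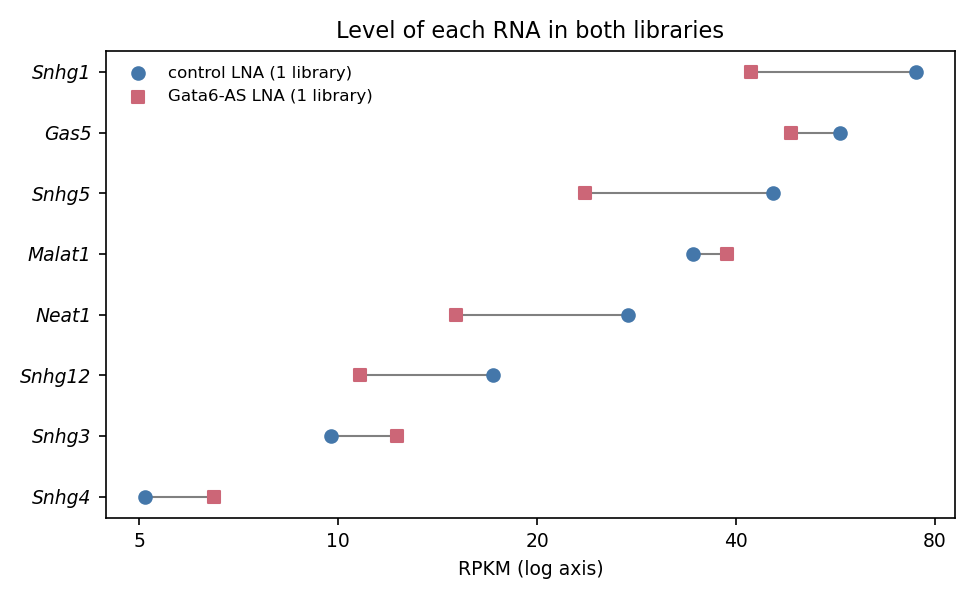
Level of each of the 8 RNAs in RPKM (log axis) in the control LNA library (circles) and the Gata6-AS LNA library (squares), 1 library each, ordered by the control level. Snhg1, Gas5, Snhg5, Neat1 and Snhg12 have the square to the left of the circle, and Malat1, Snhg3 and Snhg4 to the right.

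In the control library the order of levels per length was Snhg1, Gas5, Snhg5, Malat1, Neat1, Snhg12, Snhg3 and Snhg4. In the Gata6-AS LNA library Gas5 came before Snhg1, Malat1 before Snhg5, and Snhg3 before Snhg12. With 1 library per group, whether neighbours in this order differ beyond the spread between cultures cannot be told. By mean level Snhg1 was above 93.5% of the measured genes, Gas5 above 92.7%, Malat1 above 88.9% and Snhg5 above 88.1%, while Snhg4 was above 40.4%. The range within the group was thus wide, from Snhg4 with a mean of 5.78 RPKM to Snhg1 with a mean of 58.5 RPKM.

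Snhg5, which hosts Snord50a and Snord50b, had the most negative difference of the 8. Its level was 45.5 RPKM with the control LNA against 23.6 RPKM with the Gata6-AS LNA, which is 51.9% of control (47.8% to 56.2%), a log2 difference of -0.92. Of all measured genes, 0.571% had a difference as negative or more. The gene occupies 88415894 to 88417721 of chromosome 9 (mm9, minus strand).

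Snhg1, which carries a row of box C/D snoRNAs, had 74.9 RPKM with the control LNA and 42.2 RPKM with the Gata6-AS LNA. That is 56.3% of control (55.01% to 57.6%) and a log2 difference of -0.81, with 0.829% of all genes as far below or further. Its position is 8797986 to 8800932 of chromosome 19, plus strand.

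Snhg12, the host with snoRNAs of both classes, came to 17.2 RPKM with the control LNA and 10.8 RPKM with the Gata6-AS LNA, 62.9% of control (58.04% to 68.1%). Its log2 difference was -0.62, and 1.67% of all genes were as low or lower. Its position is 131864593 to 131866939 of chromosome 4, plus strand.

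Gas5, a host named for its accumulation in growth-arrested cells, differed less than these. The 2 levels were 57.4 RPKM (control) and 48.5 RPKM (Gata6-AS LNA), 84.5% of control (82.9% to 86.04%) with a log2 difference of -0.24. Of all genes, 13.3% had a difference as negative or more. The gene occupies 162964553 to 162968670 of chromosome 1, plus strand.

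Snhg3 and Snhg4 were on the other side of 0. Snhg3, host of Snora73a and Snora73b, measured 9.75 RPKM (control) and 12.3 RPKM (Gata6-AS LNA), 126% of control (112% to 141%), a log2 difference of 0.30. Snhg4 was at 5.09 RPKM and 6.47 RPKM, 127% of control (115% to 141%), a log2 difference of 0.29. Of all measured genes 15.9% and 16.5% had differences as positive or more, so both lay within the bulk of the genes. Snhg3 occupies 131903929 to 131909601 of chromosome 4 (minus strand) and Snhg4 35713064 to 35717970 of chromosome 18 (plus strand).

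Neat1 and Malat1, which lie 22036 bp apart on the minus strand of chromosome 19, stood on opposite sides of 0. Neat1 measured 27.5 RPKM (control) and 15.1 RPKM (Gata6-AS LNA), 54.8% of control (53.5% to 56.3%), a log2 difference of -0.83, and 0.793% of all genes were as low or lower. Malat1 measured 34.4 RPKM (control) and 38.8 RPKM (Gata6-AS LNA), 113% of control (111% to 114%), a log2 difference of 0.17, with 30.9% of all genes as high or higher. Neat1 spans 5824708 to 5845478 and Malat1 5795690 to 5802671. Neat1 is made as a short and a long isoform from one start, and its row spans 20771 bp, so that its value averages over the long isoform and does not separate the isoforms.

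**Figure D2:**
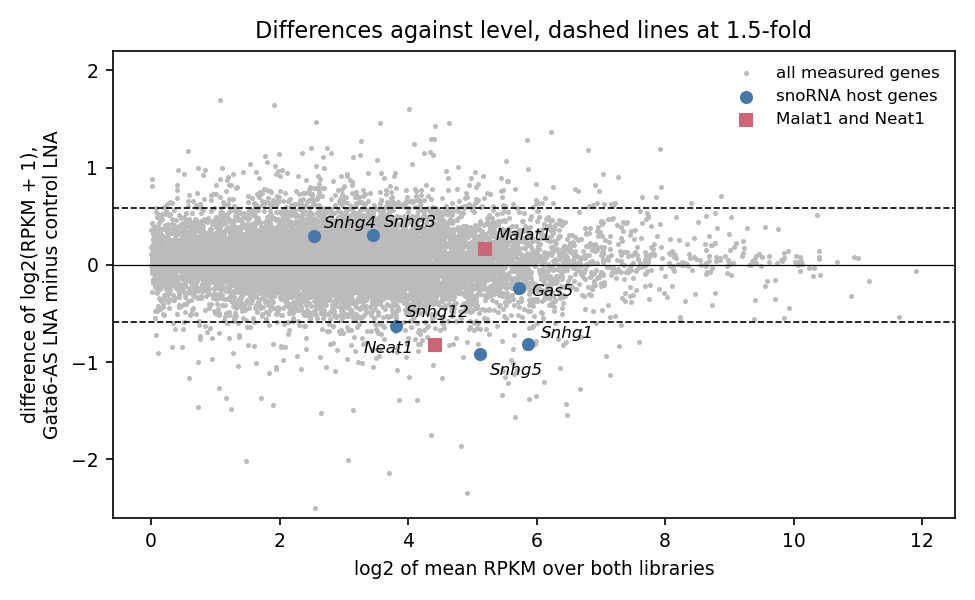
Difference of log2(RPKM + 1) between the libraries against log2 of the mean RPKM, with 10850 measured genes in grey, the 6 snoRNA hosts as circles and Malat1 and Neat1 as squares. Snhg5, Neat1, Snhg1 and Snhg12 lie below the lower dashed line (1.5-fold), and Gas5, Malat1, Snhg3 and Snhg4 lie between the dashed lines.

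The authors' deposited table of differences, limited to genes with p up to 0.07499, listed the same 4 RNAs that passed 1.5-fold and no other of the 8. In the authors' deposited table, Snhg5 had a log2 difference of -1.01 (p = 0.000755), Neat1 -0.87 (p = 0.00408), Snhg1 -0.78 (p = 0.00854) and Snhg12 -0.74 (p = 0.0151). Listed there as lower were 4 of the 8 and 5.7% of the measured genes, and as higher 0 of the 8 and 6.24%, so that 11.9% were listed in either direction. These p-values of the authors come from the same 2 libraries, and the sources used here do not give their test.

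What a row counts differs between these genes. RPKM multiplied by the right length gives whole reads in both libraries, and 5 of the 8 RNAs did so at a length known from an annotation, within 0.006 reads. Snhg1 did so at the full span of its row, 2947 bp, with the introns of its spliced forms (15278 reads in the Gata6-AS LNA and 22869 in the control library), although the median length of its 18 GENCODE transcripts is 602 bp. Gas5 did so at 3760 bp, the summed length of all GENCODE exons, retained introns included (22413 and 22354 reads), where the median transcript has 629 bp. The values of Snhg1 and Gas5 thus include intron sequence and spread the spliced RNA over a longer stretch than it has. Those introns hold the snoRNAs, whose share of the reads was not tested. Snhg3 did so at 986 bp (1486 and 996 reads), Malat1 at its span of 6982 bp (33285 and 24906 reads) and Neat1 at its span (38481 and 59097 reads). For Snhg4, Snhg5 and Snhg12 neither the span nor, where tested, the exon sum gave whole reads. The least reads that fit their values were 916 and 607 for Snhg4, 961 and 1561 for Snhg5, and 1079 and 1446 for Snhg12, each with the Gata6-AS LNA library first.

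Several of these genes lie close to or within another gene. Among 15 genes reported here that lie next to or overlap the 8, 11 had a mean of at least 1 RPKM. Their median difference was 0.19, with 8 above 0 and 3 below, where 58% of all genes were above 0. At least 1.5-fold lower were 0 of the 11, beside 1.94% of all genes, and 0 were 1.5-fold higher, beside 3.43%. These counts are on the log2(RPKM + 1) scale, and by the ratio of RPKM alone Gm9783 was at 170% of control.

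The neighbours of the 4 lower RNAs were on both sides of 0. Slc3a2, the heavy chain of amino acid transporters, starts 127 bp from Snhg1 on the opposite strand and measured 167 RPKM (control) and 115 RPKM (Gata6-AS LNA), 68.5% of control (67.3% to 69.8%, log2 difference -0.54). In each pair of values from here on the control comes first. On the other side of Snhg1, Wdr74, a ribosome assembly factor, was at 24.2 and 31.2 RPKM (129% of control). Syncrip and Zfp949, the nearest genes on either side of Snhg5, lie 38481 and 25136 bp from it. They were at 79.6% and 69.2% of control. Trnau1ap, a factor of selenocysteine synthesis 738 bp from Snhg12, was at 119%. Gm9783, beside Neat1, was at 1.88 and 3.20 RPKM, 170% of control (132% to 221%). The other neighbour of Snhg12, Rab42-ps, was at 0 and 0.0107 RPKM. Of the 15 neighbouring genes, the authors' deposited table listed only Slc3a2 (log2 difference -0.52) and Zfp949 (-0.64), both as lower. It listed 5.7% of the measured genes as lower.

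For Gas5 and the RNAs above 0, the neighbours gave these values. Zbtb37, on the opposite strand, shares 428 bp with Gas5 and was at 0.740 and 0.707 RPKM and Serpinc1, the nearest gene to its left, at 0.0358 and 0.0264 RPKM. Rcc1, the exchange factor of the GTPase Ran, shares 5592 bp and its strand with Snhg3 and was at 13.0 and 14.99 RPKM (115% of control). Gm17300 lies within Snhg3 on the opposite strand, at 7.06 and 9.16 RPKM (130%). The next gene beyond Snhg3, Phactr4, was at 118% of control. Matr3, a nuclear matrix protein gene 3841 bp from Snhg4, was at 46.4 and 49.2 RPKM (106%), and Gm5239 at 0.0262 and 0.154 RPKM. Gm20417, inside Malat1 on the opposite strand, was at 25.6 and 26.3 RPKM (103%). The sources used here do not say whether reads were counted by strand, so reads of Malat1 and Gm20417, of Snhg3 and Gm17300, and of Gas5 and Zbtb37 cannot be told apart where they overlap, and neither can those of Snhg3 and Rcc1, which share a strand.

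**Figure D3:**
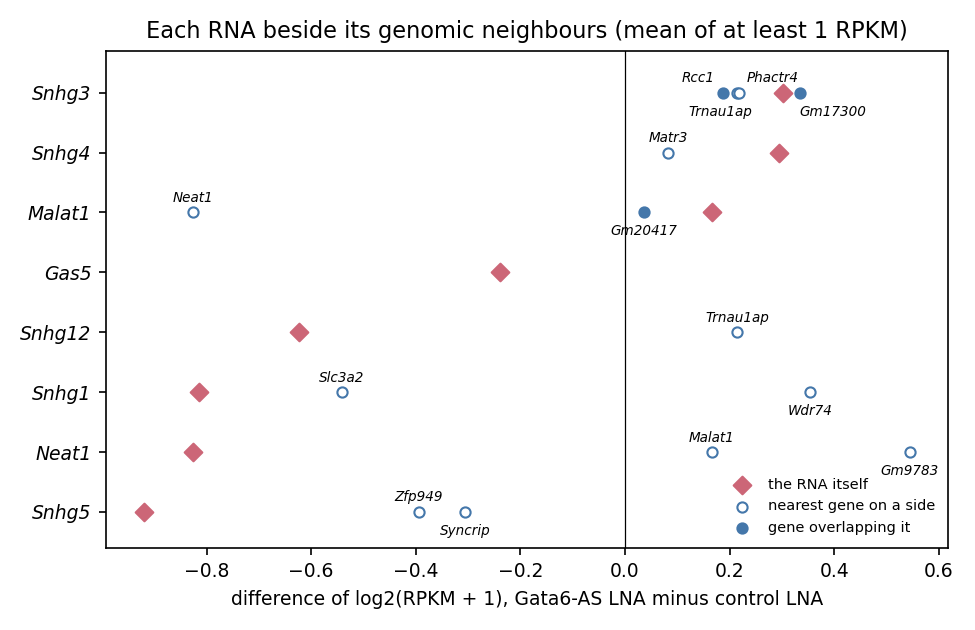
Difference of log2(RPKM + 1) of each of the 8 RNAs (diamonds) beside that of the nearest gene on each side (open circles) and of overlapping genes (filled circles), for the genes reported here with a mean of at least 1 RPKM. The diamond lies to the left of every neighbour plotted for Snhg5, Neat1, Snhg1 and Snhg12, and Gas5 has no neighbour plotted.

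Hosts of other snoRNAs were on both sides of 0, as were all measured genes, with 58% above, 42% below and a median of 0.05. GENCODE placed snoRNAs with Snord or Snora names inside 89 genes, of which 75 were measured. The classes here come from those names only. SnoRNAs under other names were not counted, so a host may carry more of them or the other class. Without the hosts described here, the 42 hosts of box C/D snoRNAs alone had a median difference of 0.04, 25 above 0 and 17 below, and 1 of them, Ccar1 (28.3 and 15.2 RPKM, log2 difference -0.86), was at least 1.5-fold lower, beside 1.94% of all genes. The 25 measured hosts of box H/ACA snoRNAs alone had a median of 0.04, 16 above 0 and 9 below, from -0.17 to 0.31. The 3 other hosts with both classes were all above 0, from 0.07 to 0.27. Ccar1, a coactivator of cell cycle and apoptosis genes, was singled out after its value was seen.

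**Figure D4:**
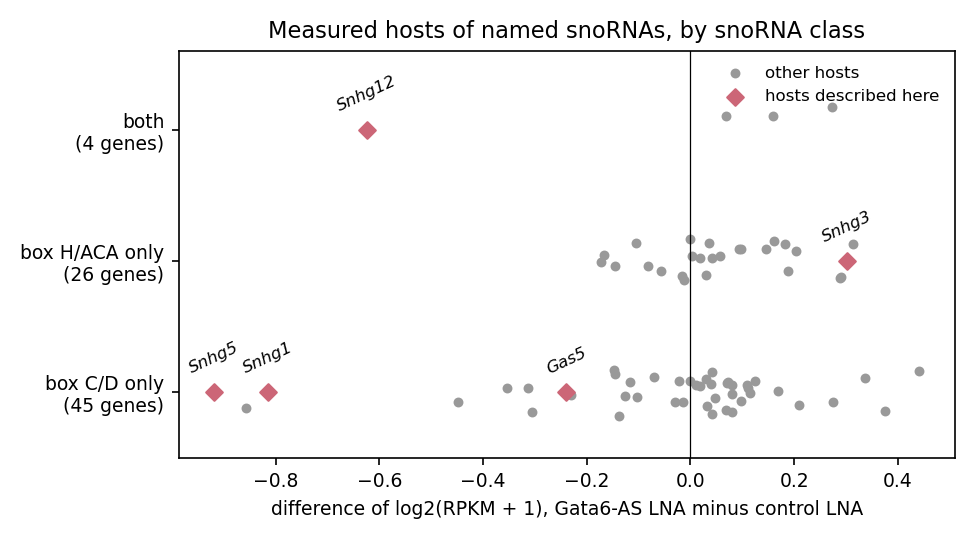
Difference of log2(RPKM + 1) of 75 measured host genes, by the class of the named snoRNAs in their span, with vertical jitter. Diamonds mark Snhg1, Snhg5, Gas5, Snhg12 and Snhg3, and Snhg4 is absent because it was not matched in GENCODE.

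Most of the other noncoding hosts and noncoding RNAs in the 2 lists used here were near or above 0. Of 15 further noncoding hosts of small RNAs 10 were measured, 8 above 0 and 2 below, with a median of 0.14, where 58% of all genes were above 0. Snhg20 (2810008D09Rik in the table) was the 1 of the 10 at least 1.5-fold higher, at 6.001 and 9.73 RPKM (162% of control, log2 difference 0.62), beside 3.43% of all genes. Mir17hg, host of a microRNA cluster, was at 2.19 and 3.17 RPKM (0.39), Snhg16 at 3.92 and 4.69 RPKM (0.21) and Epb41l4aos at 22.1 and 25.4 RPKM (0.19). Further hosts with provisional names, whose coding status was not examined, lie outside this list. Among them, 2410006H16Rik, with Snord49a, Snord49b and Snord65, was at 243 and 190 RPKM (-0.35). 1110038B12Rik, with Snord52, was at 43.4 and 35.0 RPKM (-0.31), and Gm15832, with Snord89, at -0.31. Above 0 were 2410002F23Rik (0.34) and 2700038G22Rik (0.38). A second list held 23 further noncoding RNAs, whose place in the cell was not examined and which need not be nuclear. Of these 11 were measured, 8 above 0 and 3 below, with a median of 0.11. On the log2(RPKM + 1) scale 0 were past 1.5-fold in either direction. By the ratio of RPKM alone, without the pseudocount, Ftx (171% of control, 158% to 186%) and Oip5os1 (64.1%, 62.04% to 66.3%) were past it. Oip5os1, an RNA with a conserved site for a microRNA, was at 9.44 and 6.05 RPKM (-0.57) and Tug1 at 11.3 and 8.08 RPKM (-0.43). The X inactivation centre RNA Ftx was at 1.10 and 1.89 RPKM (0.46), and the imprinted H19 at 206 and 276 RPKM (0.42).

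Most genes of proteins that bind snoRNAs or assemble them into particles were above 0, but not all. Of 20 snoRNP core and assembly genes, 16 were above 0 (58% of all genes were) and 4 below, with a median of 0.29, and 5 of the 20 were at least 1.5-fold higher, beside 3.43% of all genes. They included Rrp9 (5.43 and 11.1 RPKM, log2 difference 0.91), the assembly helicase Ruvbl1 (0.72), and Nhp2 (0.68) and Nop10 (0.67), core proteins of box H/ACA particles. The 4 below 0 were Nop58, a core protein of box C/D particles (64.9 and 47.3 RPKM, -0.45, 72.8% of control), Znhit6 (-0.15), Naf1 (-0.07) and Snu13 (-0.01). Of 25 ribosome biogenesis genes 20 were above 0, with a median of 0.20 and 3 at least 1.5-fold higher. Those were Bop1 (7.04 and 15.9 RPKM, 1.07), the RNA methyltransferase gene Ftsj3 (0.66) and the RNA polymerase I subunit gene Polr1e (0.61), while Nop14 was at -0.48.

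Some genes stand in more than one list, among them Nop58 and Dkc1. Translation mRNAs that begin with a TOP tract, and protein-coding hosts, centred on 0. The 25 TOP mRNAs had a median of 0.00, 12 above 0 and 13 below, with Eef1d (0.51), Hnrnpa1 (0.22), Tpt1 (-0.17) and Eef1g (0.16) farthest from 0. The 26 protein-coding snoRNA hosts had a median of 0.02, 15 above 0 and 11 below, with Rnf149 (-0.46), Nop58 (-0.45), the pseudouridine synthase gene Dkc1 (0.43) and Ppan (0.41) farthest from 0. In both lists 0 genes passed 1.5-fold, beside 1.94% of all genes lower and 3.43% higher. Of all genes 58% were above 0.

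Decay factors and proteins of nuclear bodies had medians near that of all genes. The counts below stand beside 58% of all measured genes above 0. Past 1.5-fold were 1.94% of all genes on the lower and 3.43% on the higher side. The 20 nonsense-mediated decay genes had a median of 0.01, 11 above 0 and 9 below, and 0 past 1.5-fold. Rbm8a (0.47), Upf3b (0.45), Dcp2 (-0.38) and Etf1 (-0.37) were farthest from 0. The 19 measured paraspeckle protein genes had a median of 0.07, 11 above 0 and 8 below, and 1 past 1.5-fold, the chromatin remodeller gene Smarca4 (12.4 and 22.1 RPKM, 0.78). Hnrnph3 was at -0.50, Hnrnpk at -0.29 and Rbm14 at 0.27. Sfpq and Nono, core proteins of paraspeckles, were at 26.2 and 27.5 RPKM and at 82.6 and 76.0 RPKM. The 20 nuclear speckle and SR protein genes had a median of 0.01, 11 above 0 and 9 below. Of these U2af1 was the 1 past 1.5-fold (38.7 and 60.2 RPKM, 0.62), followed by Acin1 (0.41), Srsf3 (0.40) and Rnps1 (0.39).

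Slc3a2, the gene beside Snhg1, belongs to the targets of the amino acid response factor ATF4. The list used for them holds 22 genes, among them Atf4 itself (138 and 136 RPKM, -0.02). It was chosen with earlier results of these data known. Of the 22 genes 14 were at least 1.5-fold lower, beside 1.94% of all genes. Their median was -0.81, with 20 below 0 and 2 above. The most negative differences were those of Nupr1 (-2.49), Slc1a4 (-1.75), Slc7a5 (-1.55) and Atf5 (-1.53). Of 17 measured p53 targets 15 were above 0 and 2 below, with a median of 0.45 and 2 at least 1.5-fold higher, Trp53inp1 (0.76) and Bbc3 (0.64), beside 3.43% of all genes. They were followed by Gtse1 (0.58) and Zmat3 (0.56), at 153% and 152% of control by the ratio of RPKM alone. In a list of 16 hypoxia and stress genes 11 were measured, with a median of -0.07. Epas1, the hypoxia factor HIF-2alpha, was at 199 and 111 RPKM (-0.83), Vegfa at 23.5 and 13.0 RPKM (-0.81) and Hif1a at 14.03 and 8.54 RPKM (-0.66), while the glucose transporter gene Slc2a1 was at 41.3 and 108 RPKM (1.37). Whether any of these genes had a part in the levels of the 8 RNAs was not tested.

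**Figure D5:**
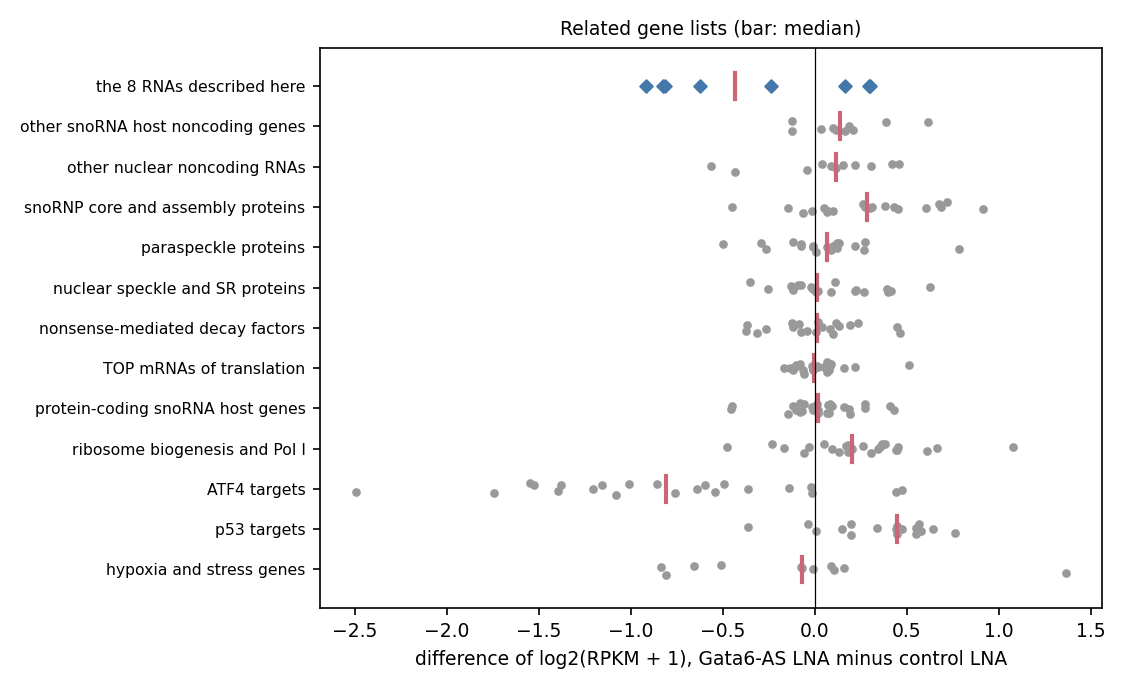
Difference of log2(RPKM + 1) of the 8 RNAs (top, diamonds) and of the measured genes of 12 related lists (grey points), with a bar at each median. The medians run from -0.81 for ATF4 targets to 0.45 for p53 targets, and that of the 8 RNAs is -0.43.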

How the data were processed

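Total RNA of PS10 XEN cells was sequenced from 2 libraries, 1 per group, grouped by their titles. The titles read siRNA-Control and siRNA-Gata6AS, while the groups are called control LNA and Gata6-AS LNA here. The authors' deposited expression table gives RPKM for 26127 genes, per the file headers. TopHat and mm9 are named in the submitters' processing notes, while the sources used here do not give the counting tool, the annotation or the use of strand. For 2099 genes the authors also deposited log2 values, the log2 difference between libraries and its p-value.

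Symbols on more than 1 row (59) used the row with the highest mean, and 85 rows spanning under 200 bp were left out. Genes needed a mean of 1 RPKM. Values were used as deposited, with a pseudocount of 1 RPKM. The size rules of 1.5-fold and 2-fold stand in for a test. The size of 1 read was taken from genes spanning under 3000 bp (792 for the control, 839 for the Gata6-AS LNA) whose values were whole reads within 0.003. The least reads fitting both values of a gene at a length up to 30000 bp gave the exact (Clopper-Pearson) 95% interval of their ratio. These can be fewer than the reads counted, which widens the interval. For Neat1 they were 9680 (Gata6-AS LNA) and 14866 (control), in place of 38481 and 59097 at its span. PCR copies are not independent molecules, so these intervals cover counting error only. The code was tested on simulated data. Sequences came from RefSeq promoters (GRCm38.p6) and GENCODE transcripts; coordinates of the table (mm9) and of GRCm38 were not mixed. Python 3.11.15, pandas 2.3.3, numpy 2.4.6 and scipy 1.17.1 were used.

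The members and the 12 gene lists and 6 marker lists were chosen with earlier results of these data known. Of 252 entries of the gene lists, 224 matched by symbol and 19 by RefSeq synonym, and 9 did not match. Named were the 8 RNAs, Gata6-AS and Gata6, neighbouring and overlapping genes, and the 4 genes of each list farthest from 0. Sfpq, Nono, Atf4, Slc3a2 among ATF4 targets, Ccar1 and the hosts with provisional names were added after their values were seen. So were Znhit6, Naf1 and Snu13, named as snoRNP genes below 0, and single marker genes such as Cdx2. The host classes and the counted lengths were examined after the files were seen. The neighbour on one side of Gas5 and on one side of Malat1 is not reported here and is left out of the counts of neighbours. Alternatives were the pseudocount, the filter, 3 scalings, the ratio of RPKM without a pseudocount, the authors' differences and rows of repeated symbols.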

Additional observations from a re-analysis of the deposited data

How the results depend on the processing

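Under 10 alternatives the 8 RNAs kept the sign of their differences, in 76 of 76 values, but most of these values could not have changed sign. A smaller pseudocount or the ratio of RPKM alone cannot change a sign. The changed filters and the mean over repeated symbols left the value of each RNA as it was. Only the scalings and the authors' log2 differences could have changed a sign, and the authors' table lists only the 4 lower RNAs. The ranges were -1.01 to -0.92 for Snhg5, -0.86 to -0.78 for Snhg1, -0.88 to -0.83 for Neat1, -0.74 to -0.62 for Snhg12, -0.29 to -0.24 for Gas5, 0.25 to 0.33 for Snhg3, 0.25 to 0.35 for Snhg4 and 0.12 to 0.17 for Malat1. The 4 RNAs at least 1.5-fold lower stayed 4 under each. The count at least 2-fold lower was 0, but 1 by the log2 difference in the authors' deposited table (Snhg5), and 4 with 1.5-fold in place of 2-fold; the median was -0.83 over the 4 RNAs listed in the authors' deposited table, which lists no other of the 8. Over all genes, a pseudocount of 0.1 RPKM gave 81 genes 2-fold lower and 92 higher in place of 49 and 36, and 323 lower and 617 higher at 1.5-fold in place of 211 and 372. A pseudocount of 0.5 RPKM gave 59 genes 2-fold higher. Scaling to 1000000 summed RPKM gave 87 lower and 74 higher at 2-fold and 397 and 573 at 1.5-fold, but over 12709 genes in place of 10850, since it raised the values against the same filter and pseudocount. No paired analysis was possible because each group has 1 library. Counting intervals are narrow beside the differences of the 4 lower RNAs, but the spread between cultures is unknown, so no difference here can be set against it.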
